A study of Mus musculus with 6 samples.

Results

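Genes for the sarcomere, the contractile unit of striated muscle, for the Z disc that borders it and for the costamere that ties it to the cell membrane were followed in the mouse ventricle late in gestation. The set held 36 genes, given as a list of symbols. The fetal and adult isoform pairs of myosin heavy chain, sarcomeric actin and troponin I were left out of it. All 36 were found among the 25006 genes of the count files, and all 36 passed the filter on low counts, as did 14815 genes in all.

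The study compared ventricular RNA of embryos at embryonic day 17.5 on an NMRI background, with 3 control libraries and 3 libraries labelled null. Control samples carry the genotype label WT, and the null samples the label VecadcreERT2; Prox1f/f, a tamoxifen-inducible Cre driven by the VE-cadherin promoter, which is active in endothelial cells, together with floxed alleles of Prox1. The breeding notes give Prox1 f/f mothers and Cre-carrying fathers with the same floxed alleles for both groups, so the notes and the WT label do not describe the controls in the same way. Mothers were injected with tamoxifen (5 mg for each 40 g of weight) at E13.5 and E14.5. A control group that carries Cre without floxed Prox1 is not named in the labels. Whether the 3 libraries of a group came from separate embryos is not stated, so the p-values reflect only the spread among these libraries. By their Xist and Y-linked counts, given with the depths, control 3 is not a repeat of the sample behind controls 1 and 2, nor null-labelled 2 of that behind null-labelled 1 and 3. The remaining pairs differed as well, and null-labelled 1 and 3 held 1798 and 5738 Xist counts. A chi-square per gene, a measure of how far the counts of a pair differ, was 9.68 for null-labelled 1 and 3. It was 12.13 and 9.18 for the pairs with null-labelled 2. For controls 1 and 2 it was 10.99, with larger values for the pairs with control 3, up to 27.86. How much of the spread in the remaining pairs was technical was not tested.

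In a sarcomere, thin filaments of actin, tropomyosin and troponin slide along thick filaments of myosin, while titin runs from the Z disc to the M band and sets passive stiffness. The Z disc crosslinks thin filaments of neighbouring sarcomeres through alpha-actinin and holds LIM-domain and PDZ-domain proteins that take part in mechanical signalling. Costameres and intercalated discs join these filaments to the membrane, and many of the genes are mutated in inherited cardiomyopathies.

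Library totals ranged from 35195544 to 44330594 counts, with 17751 to 17960 genes detected. Prox1 itself, the gene targeted in the null design, stood at 149, 143 and 149 CPM (the counts scaled to library size) in controls and at 164, 160 and 168 CPM in the null-labelled libraries, so it was not lower there (log2 fold change 0.15, adjusted p = 0.0331). Cardiomyocytes express Prox1 too, and gene counts from whole ventricle do not separate them from the endothelial cells in which the Cre is active. The libraries are therefore called null-labelled throughout. Esr1, the gene of the estrogen receptor whose ligand-binding domain is fused to Cre in CreERT2, had 9 to 19 counts in controls and 244 to 298 in null-labelled libraries. Null-labelled libraries 1 and 3 held counts of 4 Y-linked genes (9218 and 9952) together with Xist (1798 and 5738), while each of the other 4 libraries was high for one of these and low for the other. Control 3 had 175 Y-linked and 49485 Xist counts and null-labelled 2 had 190 and 50586, whereas controls 1 and 2 had 11143 and 8735 Y-linked counts with 28 and 29 of Xist. Of all tested genes, 801 changed, 360 of them higher and 441 lower in the null-labelled libraries. A gene is said to have risen, fallen or changed at an adjusted p under 0.05 in edgeR's quasi-likelihood test, adjusted over all tested genes.

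The sarcomere set was abundant in every library and took 4.49% to 4.79% of all counts in controls and 4.54% to 4.63% in null-labelled libraries. Compared per length of annotated exon, as control RPKM, troponin C (Tnnc1, 1725 RPKM), troponin T (Tnnt2, 1069 RPKM), cardiac myosin-binding protein C (Mybpc3, 1053 RPKM) and alpha-actinin (Actn2, 821 RPKM) stood highest. Titin (Ttn) had among the highest CPM of the set but 70.5 RPKM, because its exons are so long. The lowest levels were those of Pdlim3 (13.8 RPKM), Synpo2 (6.12 RPKM), Mybphl (2.31 RPKM) and Xirp2 (1.5 RPKM). Lengths are unions of all annotated exons, so RPKM is understated for genes with many unused exons.

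**Figure D1:**
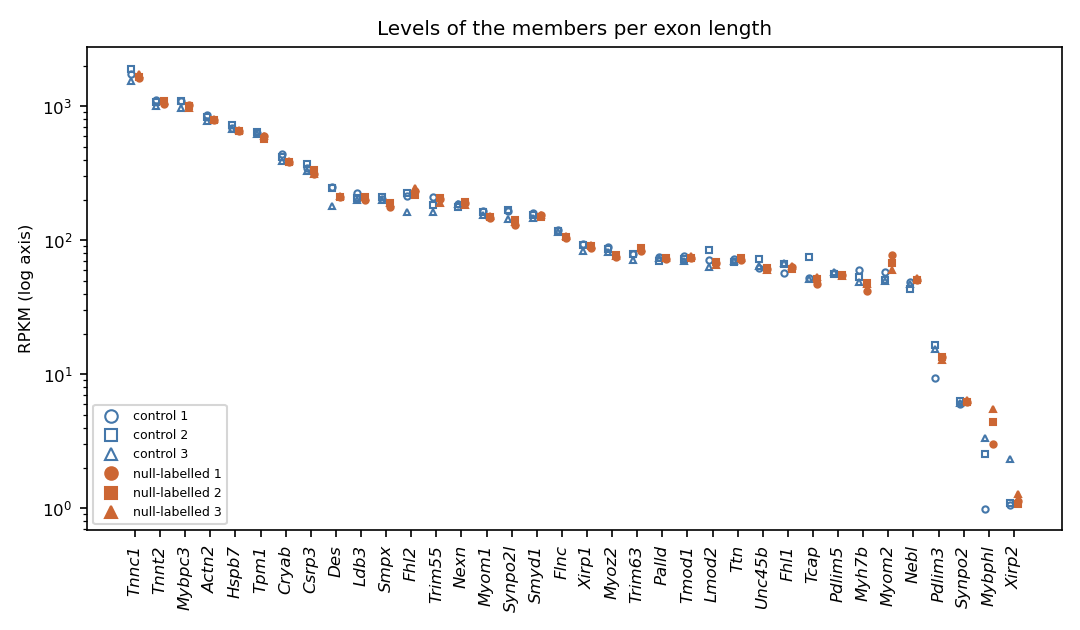
Level of each of the 36 genes in RPKM (log axis), one point per library, with controls and null-labelled libraries marked separately. The genes run from Tnnc1 at 1725 RPKM to Xirp2 at 1.5 RPKM in controls, and the groups lie close together against this range.

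Between the groups, most genes of the set had values near their control level. Of the 36 genes, 1 fell (Myoz2), 0 rose and 35 did not pass the test, a share of 2.78% where 5.41% of all tested genes changed (2.98% lower, 2.43% higher). Among the 4299 tested genes whose mean level was 52.2 CPM or higher, which holds for all of the set but Mybphl and Xirp2, 6.49% changed. The median log2 fold change of the set was −0.05 and that of all tested genes −0.00396, with 24 of the 36 genes below 0 and 12 above. At an unadjusted p under 0.05 there were 12 genes, 9 lower and 3 higher, where 20.5% of all tested genes passed (10.9% lower, 9.55% higher).

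The precision was higher for the set than for all tested genes together, many of which had lower levels. The median standard error was 0.0495 for the set, 0.0707 for all tested genes and 0.0438 for the 4299 genes at 52.2 CPM or higher. The median size of the log2 fold change was 0.102, 0.0895 and 0.0553 in the same order. Beside these 4299 genes, the set was thus slightly less precise and its differences were larger. They share only the floor of 52.2 CPM with the set and are not matched in level, and Mybphl and Xirp2 lie below that floor. The 95% interval of the difference lay within 0.32 of 0 on the log2 scale for 26 of 36 genes (72.2%, against 58.1% of all tested genes) and within a 1.5-fold change in either direction for 31 (86.1%, against 76.4%). The 5 genes with wider intervals were Tcap, Mybphl, Myom2, Pdlim3 and Xirp2. The libraries of the groups did not overlap in 13 of the 36 genes (36.1%, against 26.6% of all tested genes). Of these, 10 were lower in the null-labelled libraries (13.9% of all tested genes) and 3 higher (12.7%).

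These counts move with the test. DESeq2 called 7 of the 36, with Myom2 and Trim63 higher and Myh7b, Myoz2, Synpo2l, Flnc and Smpx lower. It called 1095 of all genes, against 801 in the main comparison, where 1 of the 36 was called. The count in the set started from 1 call near the threshold (Myoz2, adjusted p = 0.0468 in edgeR), so no factor is drawn from it. With scaling by relative log expression, 0 of the 36 and 768 of all genes were called. Scaling to 17 cardiomyocyte genes outside the sarcomere called 13, all lower, and moved the median of all tested genes to −0.15, so the set's median of −0.20 lay 0.05 below that of all genes there, as in the main comparison. All genes then split into 187 higher and 1771 lower, against 360 and 441. Omitting null-labelled libraries 1 and 3, which hold both Y-linked and Xist counts, leaves 1 null-labelled library. That loss of replication by itself lowers the number of calls, and the median of the set was −0.06 in that fit.

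**Figure D2:**
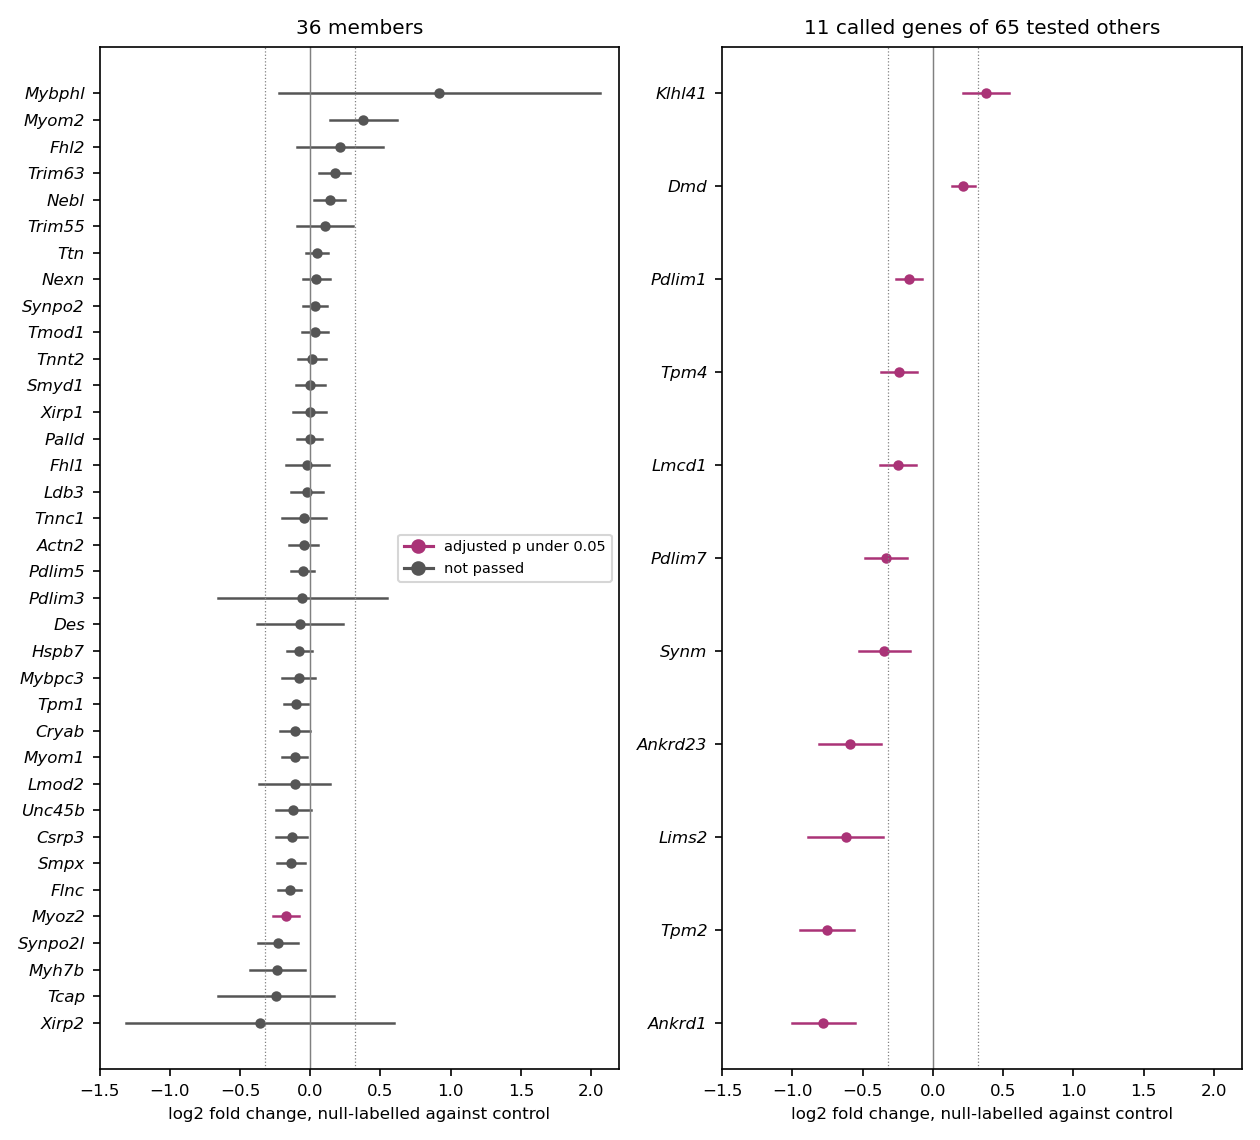
Log2 fold change, null-labelled against control, with 95% intervals (lines) for the 36 genes of the set, ordered by value, and for the 11 other sarcomere genes that changed. Dotted lines stand 0.32 from 0. In the set 24 of 36 intervals include 0 and Myoz2 passed the threshold.

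Titin and its cap did not pass the test, and neither had an unadjusted p under 0.05. Ttn, the giant spring of the sarcomere, had 8437, 8063 and 8203 CPM in controls and 8371, 8562 and 8604 CPM in null-labelled libraries. The groups overlapped, with a log2 fold change of 0.05 (95% interval −0.03 to 0.13, adjusted p = 0.504), so a change in total titin mRNA of more than about 1.1-fold lies outside that interval. Gene counts do not show the choice between long and short titin isoforms, which differ in spliced exons. Tcap, which caps the amino-terminal end of titin at the Z disc, had 49.8, 71.7 and 48.4 CPM in controls against 44.9, 48.3 and 50.1 in null-labelled libraries. Control 2 alone stood high, and the log2 fold change of −0.24 had an interval of −0.66 to 0.17.

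None of the 6 thin-filament genes passed the test in edgeR, and 2 had an unadjusted p under 0.05 (Tpm1 and Nebl). Tnnt2, which anchors the troponin complex to tropomyosin, had 8689, 8340 and 7834 CPM in controls against 8091, 8433 and 8526 in null-labelled libraries, and its log2 fold change was 0.01 (interval −0.09 to 0.11). Tnnc1, the calcium-binding subunit, ranged from 1611 to 1973 CPM in controls and from 1680 to 1814 CPM in null-labelled libraries. Tmod1, which caps the slow-growing filament end, spanned 277 to 302 CPM in controls and 293 to 300 CPM in null-labelled libraries. For both of these genes the groups overlapped, with log2 fold changes of −0.05 for Tnnc1 and 0.03 for Tmod1. Lmod2, a leiomodin that elongates thin filaments, stood at 124 to 166 CPM in controls and 129 to 135 CPM in null-labelled libraries.

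The main striated-muscle tropomyosin and nebulette separated the libraries without passing the test. Tpm1 had 4060, 4173 and 4037 CPM in controls and 3862, 3711 and 3878 CPM in null-labelled libraries. All 3 null-labelled values were below all 3 controls, with a log2 fold change of −0.10 (interval −0.18 to −0.02, adjusted p = 0.168). Nebl, which encodes nebulette, a link between thin filaments and the Z disc, had 743, 661 and 717 CPM in controls and 763, 774 and 795 CPM in null-labelled libraries. Here the null-labelled libraries were all higher, by 0.14 on the log2 scale (interval 0.03 to 0.25, adjusted p = 0.145).

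Thick-filament and M-band genes gave values on both sides of 0, and 0 of 5 passed in edgeR, with 3 at an unadjusted p under 0.05 (Myh7b, Myom1 and Myom2). Mybpc3, the cardiac myosin-binding protein that tunes crossbridge cycling, had 4587, 4538 and 4024 CPM in controls against 4221, 4165 and 4029 in null-labelled libraries (log2 fold change −0.08, interval −0.20 to 0.04). Control 3 lay close to the null-labelled libraries, and the groups overlapped. Myh7b, a myosin heavy chain of slow muscle and heart, had 399, 354 and 324 CPM in controls against 280, 321 and 315 in null-labelled libraries. Its libraries did not overlap, with a log2 fold change of −0.23 (interval −0.43 to −0.04, adjusted p = 0.166).

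The myomesins, which crosslink thick filaments at the M band, had opposite signs. Myom1 stood at 1724, 1709 and 1621 CPM in controls and at 1539, 1568 and 1576 CPM in null-labelled libraries, a log2 fold change of −0.11 (interval −0.20 to −0.02, adjusted p = 0.156). Myom2 (chromosome 8, 15057653 to 15133541) stood at 513, 445 and 443 CPM in controls and at 686, 603 and 532 CPM in null-labelled libraries. Neither gene's groups overlapped, and Myom2 was 1.30-fold higher on average (log2 fold change 0.38 ± 0.10 SE, interval 0.14 to 0.62, adjusted p = 0.0876). Myom2 thus missed the threshold in edgeR and passed it in DESeq2, and also without null-labelled replicate 3 (adjusted p = 0.0418), the lowest of its group.

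Mybphl, a relative of myosin-binding protein H found mainly in atria and the conduction system, was near the lower end of the set. It had 1.27, 3.25 and 4.30 CPM in controls and 3.85, 5.61 and 7.02 CPM in null-labelled libraries. The groups overlapped, and the log2 fold change of 0.92 had an interval of −0.22 to 2.06. Sln, an atrial gene encoding sarcolipin, ran in the same order within each group, with 1.23, 7.17 and 9.51 CPM in controls and 5.92, 12.4 and 16.03 CPM in null-labelled libraries. Sln was picked for this order after its values were seen. Of the 8 atrial markers 6 had log2 fold changes above 0 and 2 below, down to −1.35 for Nppa. Their summed level was lower in null-labelled libraries (927 against 1386 CPM on average). That lower sum thus came from the 2 genes below 0, while most of the list stood above 0. The part of atrial tissue in the Mybphl values was not tested.

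At the core of the Z disc, Myoz2 fell and 4 genes did not pass. Myoz2 (chromosome 3, 123006206 to 123035015, minus strand) encodes calsarcin-1, which binds alpha-actinin and restrains the phosphatase calcineurin. It had 303, 294 and 279 CPM in controls and 256, 265 and 259 CPM in null-labelled libraries, or 292 ± 12.1 against 260 ± 4.58 (SD, n = 3). Every null-labelled library was below every control, and the fall was 1.125-fold (log2 fold change −0.17 ± 0.04 SE, interval −0.26 to −0.08, adjusted p = 0.0468). This call sits at the threshold: leaving out any one library other than control 3 gave an adjusted p of 0.113 to 0.144, and scaling by relative log expression gave 0.0537. The direction was lower in all 17 alternatives.

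The other core genes differed little between the groups. Actn2, the alpha-actinin that crosslinks thin filaments in the Z disc, had 3273, 3142 and 2933 CPM in controls and 3004, 3017 and 3021 CPM in null-labelled libraries (log2 fold change −0.05, interval −0.15 to 0.05). The coefficient of variation among the null-labelled values was 0.282%. Ldb3, a PDZ and LIM protein that binds alpha-actinin, ranged from 1218 to 1371 CPM in controls and from 1220 to 1283 CPM in null-labelled libraries. Nexn, an actin-binding protein that steadies the Z disc under load, ranged from 675 to 712 CPM in controls and from 700 to 735 CPM in null-labelled libraries. Csrp3, the muscle LIM protein, had 932, 985 and 884 CPM in controls and 828, 885 and 840 CPM in null-labelled libraries. Its lowest control and highest null-labelled library met, and the log2 fold change was −0.13 (interval −0.24 to −0.02, adjusted p = 0.165).

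Of 7 Z disc adaptors, none passed in edgeR, and Synpo2l alone had an unadjusted p under 0.05. Synpo2l, an actin-binding protein of the Z disc that is related to synaptopodin, had 769, 784 and 668 CPM in controls and 604, 658 and 629 CPM in null-labelled libraries. The groups did not overlap, and the null-labelled mean was 1.17-fold lower (log2 fold change −0.23 ± 0.06 SE, interval −0.37 to −0.09, adjusted p = 0.0675). Its relative Synpo2 ranged from 78.8 to 82.0 CPM in controls and from 81.1 to 84.0 CPM in null-labelled libraries. The log2 fold change of Synpo2 was 0.03 (interval −0.05 to 0.12).

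The remaining adaptors lay around 0. Pdlim5, a PDZ and LIM protein that brings kinases to the Z disc, had 503, 499 and 512 CPM in controls and 491, 485 and 481 CPM in null-labelled libraries. Its groups did not overlap although the log2 fold change was only −0.05 (interval −0.14 to 0.03, adjusted p = 0.456). Pdlim3, a PDZ and LIM protein that binds alpha-actinin, had 48.5, 85.0 and 79.3 CPM in controls and 66.1 to 69.4 CPM in null-labelled libraries. Control 1 was far below the other controls, and without it Pdlim3 was called lower (log2 fold change −0.27, adjusted p = 0.021), while with it the log2 fold change was −0.06. Palld, an actin-bundling scaffold, ranged from 725 to 768 CPM in controls and from 743 to 755 CPM in null-labelled libraries. The four-and-a-half-LIM genes Fhl1 and Fhl2 encode scaffolds that bind titin. Fhl1 spanned 210 to 252 CPM in controls and 225 to 240 CPM in null-labelled libraries. Fhl2 had 405, 429 and 310 CPM in controls and 442, 415 and 469 CPM in null-labelled libraries, with control 3 lowest and a log2 fold change of 0.21 (interval −0.09 to 0.52).

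At the costamere and intercalated disc, all 4 genes had values below 0 and none passed in edgeR, with 2 at an unadjusted p under 0.05 (Flnc and Smpx). Flnc, which encodes the muscle filamin that links Z discs to the membrane, had 1124, 1100 and 1092 CPM in controls and 985, 995 and 1015 CPM in null-labelled libraries. The groups did not overlap, with a 1.11-fold difference (log2 fold change −0.15 ± 0.04 SE, interval −0.23 to −0.06, adjusted p = 0.0548). Smpx, a small muscle protein of the costamere, ranged from 451 to 476 CPM in controls and from 404 to 433 CPM in null-labelled libraries, also without overlap (log2 fold change −0.14, interval −0.23 to −0.04, adjusted p = 0.106). Flnc was called lower in 6 of the 17 alternatives, among them DESeq2, limma-voom and the fit without control 3. Smpx was called lower in 2, by DESeq2 and with scaling to the cardiomyocyte genes.

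The Xin-repeat genes, whose actin-binding products sit at intercalated discs, differed in precision. Xirp1 ranged from 486 to 550 CPM in controls and from 509 to 538 CPM in null-labelled libraries, with a log2 fold change near 0 (interval −0.12 to 0.11). Xirp2 had 12.6, 13.2 and 28.0 CPM in controls and 13.6, 13.0 and 15.3 CPM in null-labelled libraries. Control 3 alone was high, and the log2 fold change of −0.35 (interval −1.31 to 0.60) turned to 0.12 without it.

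Desmin and the small heat shock proteins space and protect the myofibrils, and none of the 3 passed in edgeR, with Cryab at an unadjusted p under 0.05. Des, the muscle intermediate filament, had 930, 918 and 671 CPM in controls and 790, 795 and 808 CPM in null-labelled libraries. The null-labelled values lay between control 3 and the other controls, with a log2 fold change of −0.07 (interval −0.38 to 0.23). Without control 3 it was −0.21 and called lower (adjusted p = 0.012). Cryab, the alpha-B-crystallin chaperone of desmin, had 645, 622 and 579 CPM in controls and 570, 564 and 579 CPM in null-labelled libraries (log2 fold change −0.11, adjusted p = 0.236). Hspb7, a chaperone of thin-filament proteins, ranged from 1866 to 1988 CPM in controls and from 1800 to 1851 CPM in null-labelled libraries, without overlap (log2 fold change −0.08, interval −0.17 to 0.01).

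Genes for assembly and turnover gave 0 calls of 4 in edgeR, and Trim63 had an unadjusted p under 0.05. Trim63 (chromosome 4, 134315120 to 134329629), the ubiquitin ligase MuRF1 that marks thick-filament proteins for breakdown, had 225, 226 and 203 CPM in controls and 237, 250 and 250 CPM in null-labelled libraries. All null-labelled values were above all controls, by 1.129-fold (log2 fold change 0.17 ± 0.05 SE, interval 0.06 to 0.28, adjusted p = 0.0741). Its relative Trim55 ranged from 436 to 558 CPM in controls and from 508 to 550 CPM in null-labelled libraries, with overlap (log2 fold change 0.11, interval −0.09 to 0.30).

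The assembly factors had values at or below 0. Smyd1, a muscle methyltransferase needed for myofibril assembly, ranged from 661 to 726 CPM in controls and from 677 to 705 CPM in null-labelled libraries, an interval of −0.10 to 0.10. Unc45b, the chaperone that folds myosin heads, ranged from 281 to 327 CPM in controls and from 270 to 279 CPM in null-labelled libraries. Its groups did not overlap, with a log2 fold change of −0.12 (interval −0.25 to 0.01, adjusted p = 0.267).

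**Figure D3:**
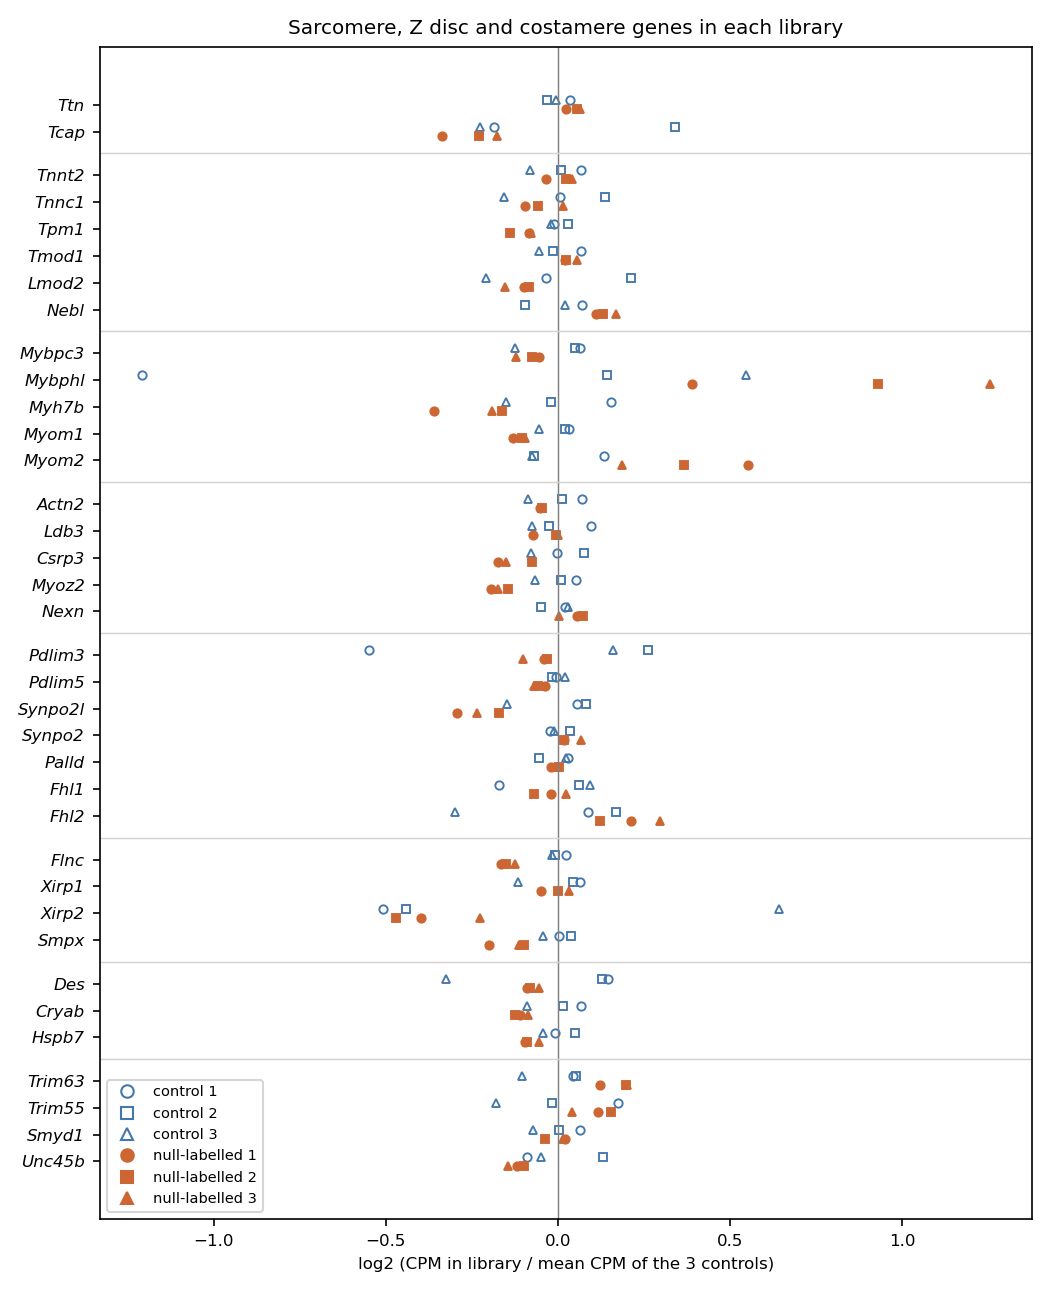
Each gene's level in each library as log2 difference from the mean of the 3 controls, genes grouped by role. Control 3 is the lowest control for 25 of the 36 genes, and the null-labelled libraries lie closer to each other than the controls do for most genes.

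The controls were more spread than the null-labelled libraries across the set. The coefficient of variation was larger in controls for 33 of 36 genes, against 58.5% of all tested genes. Its median was 5.93% in controls and 2.52% in null-labelled libraries for the set, and 6.01% and 5.02% for all tested genes. Control 3 was the lowest control in 25 of the 36 genes, where 37.1% of all tested genes had it lowest. The same library was lowest for 16 of 17 cardiomyocyte genes outside the sarcomere. Without control 3, which is also the Xist-high control, 5 genes of the set were called, all lower (Myoz2, Synpo2l, Flnc, Des and Cryab). In that fit 942 of all tested genes were called, 448 higher and 494 lower, against 801 with all libraries. Null-labelled library 1 was the lowest of its group in 22 of 36.

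Among other genes of the same structures, falls in Tpm2 and Ankrd1 stood out in size. Of 68 listed, 65 were tested and 11 changed (16.9%, against 5.41% of all tested genes), 9 lower and 2 higher, with a median log2 fold change of −0.02. Tpm2 (chromosome 4, 43514711 to 43523765, minus strand), the beta-tropomyosin of slow skeletal and smooth muscle as well as heart, had 148, 163 and 174 CPM in controls and 93.3, 88.9 and 106 CPM in null-labelled libraries. Ankrd1 (chromosome 19, 36111961 to 36120099, minus strand), a stretch-responsive partner of titin, had 893, 1039 and 891 CPM in controls and 618, 495 and 531 CPM in null-labelled libraries. The groups stood far apart in both genes. Tpm2 fell 1.69-fold (log2 fold change −0.75 ± 0.08 SE, adjusted p = 0.00528) and Ankrd1 1.72-fold (−0.78 ± 0.10 SE, adjusted p = 0.00815), and both were called in all 17 alternatives. One of these alternatives, without null-labelled libraries 1 and 3, leaves 1 null-labelled library.

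Ankrd23, a relative of Ankrd1 that also binds titin, had 47.5, 50.2 and 40.8 CPM in controls and 33.6, 31.0 and 27.5 CPM in null-labelled libraries, a 1.51-fold fall (log2 fold change −0.59 ± 0.10 SE, adjusted p = 0.0172). The other falls were in Lims2, a LIM partner of integrin-linked kinase (log2 fold change −0.62), Synm, the intermediate filament protein synemin (−0.35), the PDZ and LIM genes Pdlim7 (−0.33) and Pdlim1 (−0.17), the LIM gene Lmcd1 (−0.25) and Tpm4, a tropomyosin of non-muscle cells (−0.24). Their adjusted p-values ran from 0.0233 for Pdlim7 to 0.0458 for Pdlim1. Tpm3 did not pass, with a log2 fold change of −0.04.

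The 2 rises were in Klhl41 and Dmd. Klhl41, which stabilises nebulin-family proteins, had 60.3, 67.6 and 62.8 CPM in controls and 77.8, 91.7 and 78.0 CPM in null-labelled libraries (log2 fold change 0.38 ± 0.07 SE, 1.30-fold, adjusted p = 0.0229). Dmd (chromosome X, 82948870 to 85206141), which encodes dystrophin, the link from actin to the membrane complex, had 154, 153 and 156 CPM in controls and 173, 180 and 186 CPM in null-labelled libraries (log2 fold change 0.22 ± 0.04 SE, 1.16-fold, adjusted p = 0.0123). No library of one group reached the other in either gene. With 1 library left out at a time, Klhl41 lost its call without control 1 or control 3, Dmd and Lims2 without null-labelled 2 or 3, and Ankrd23 without null-labelled 2. Tpm4, Pdlim7 and Synm lost theirs in 5 of the 6 such fits, Lmcd1 in 4 and Pdlim1 in 6.

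**Figure D4:**
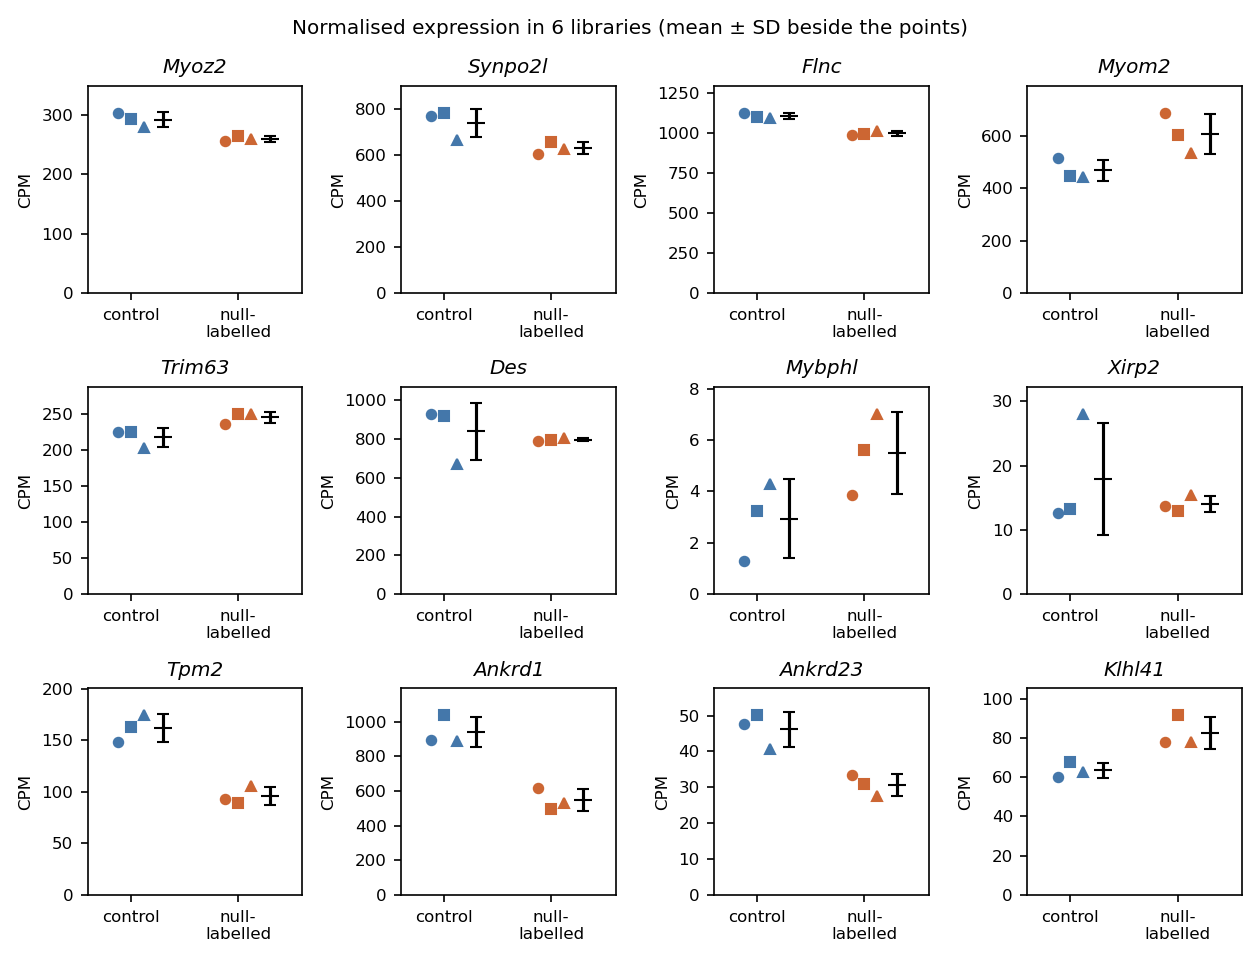
CPM in each library for 8 genes of the set (Myoz2, Synpo2l, Flnc, Myom2, Trim63, Des, Mybphl, Xirp2) and 4 other sarcomere genes (Tpm2, Ankrd1, Ankrd23, Klhl41), with mean ± SD of 3 libraries beside the points. The groups are apart in Tpm2 and Ankrd1, while single controls pull the means of Des and Xirp2.

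The isoform pairs that were left out of the set gave 1 call of 6. Actc1, the cardiac actin, fell with a log2 fold change of −0.18 (adjusted p = 0.0401). The skeletal actin Acta1 had a log2 fold change of −0.67 without passing (adjusted p = 0.273). Among myosins, Myh6 had 0.14 and Myh7 0.04, and among inhibitory troponins, Tnni1 had 0.08 and Tnni3 0.09 on the same scale, all without passing.

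Promoter windows were read for the gene that fell (Myoz2), for Trim63 as a member that stood higher without overlap, for Tnnt2 as an abundant gene near 0 (the more upstream of its 2 windows), and for the most changed other genes, Ankrd1 and Tpm2. RefSeq windows of GRCm38.p6 run from 250 bases before each transcription start to 50 after it, and 30 of the 36 genes had 1 or more, 43 in all. The sequences below are the 250 bases before the start, 5′ to 3′ on the gene's strand. Capitals mark matches on either strand to one of 5 motifs. MCAT, bound by TEAD factors, was searched as CATTCC. The core promoter box that carries the name TATA was searched with the letters TATAAA. Sites for the zinc-finger factors known by the motif GATA were searched with the letters AGATAA. The MEF2 motif and the CArG motif of serum response factor were searched by consensus. MEF2 and TATA matches can overlap. A match on the opposite strand is printed as its reverse complement.
Myoz2 (chr3:123034988-123035237, minus strand): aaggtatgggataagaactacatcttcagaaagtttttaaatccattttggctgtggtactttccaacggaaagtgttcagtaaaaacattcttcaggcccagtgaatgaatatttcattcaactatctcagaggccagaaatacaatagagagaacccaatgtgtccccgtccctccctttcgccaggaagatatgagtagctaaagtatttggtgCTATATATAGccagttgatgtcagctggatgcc
Trim63 (chr4:134314870-134315119, plus strand): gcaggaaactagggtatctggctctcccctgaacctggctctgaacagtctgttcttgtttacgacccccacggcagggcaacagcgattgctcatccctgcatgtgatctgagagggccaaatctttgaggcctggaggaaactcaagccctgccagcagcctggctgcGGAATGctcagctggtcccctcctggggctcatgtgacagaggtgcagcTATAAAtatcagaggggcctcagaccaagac
Tnnt2 (chr1:135836084-135836333, plus strand): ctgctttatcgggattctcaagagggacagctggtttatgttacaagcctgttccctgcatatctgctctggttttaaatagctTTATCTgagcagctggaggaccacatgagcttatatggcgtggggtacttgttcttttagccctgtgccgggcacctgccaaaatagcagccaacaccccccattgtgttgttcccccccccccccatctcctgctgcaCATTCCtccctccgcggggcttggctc
Ankrd1 (chr19:36119845-36120094, minus strand): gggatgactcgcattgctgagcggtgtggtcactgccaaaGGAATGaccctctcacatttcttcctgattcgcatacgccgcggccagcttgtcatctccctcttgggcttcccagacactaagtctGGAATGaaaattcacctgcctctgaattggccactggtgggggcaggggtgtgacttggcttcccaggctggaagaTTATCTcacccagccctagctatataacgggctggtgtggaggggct
Tpm2 (chr4:43523555-43523804, minus strand): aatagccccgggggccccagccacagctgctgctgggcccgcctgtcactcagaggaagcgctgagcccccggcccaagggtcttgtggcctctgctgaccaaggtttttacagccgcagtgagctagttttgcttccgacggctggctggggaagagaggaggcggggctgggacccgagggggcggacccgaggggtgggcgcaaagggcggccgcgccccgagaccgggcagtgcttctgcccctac

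Myoz2 has a MEF2 match that begins 33 bases before its start. Trim63 has an MCAT match at 80 bases and a TATA match at 31 bases. Tnnt2 shows an MCAT match at 27 bases and a GATA match at 166 bases. Ankrd1 shows MCAT matches at 210 and 123 bases and a GATA match at 47 bases, and the Tpm2 window holds no match to any of the 5 motifs. Over the full windows, MEF2 matches occurred in 8 of the 43 windows of the set (18.6%, against 3.19% of all 32851 windows) and CArG matches in 7 (16.3%, against 1.63%). MCAT matches occurred in 12 windows (27.9%, against 14.7%), GATA matches in 8 (18.6%, against 11.2%) and TATA matches in 7 (16.3%, against 13.6%). These were counted at any position in the window and on either strand. Windows of one gene can overlap, so they are not independent, and a match describes letters, not binding.

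The markers of other cells in the dissected tissue were read beside these values. Their lists were chosen with earlier results of these data known. Of all tested genes, 2.98% fell and 2.43% rose, which are the shares to hold beside the calls below. The 17 cardiomyocyte genes outside the sarcomere summed to 13621 to 15847 CPM in controls and 15927 to 16403 CPM in null-labelled libraries, and 2 of them rose (Trdn and Corin). The sarcomere set summed to 44720 to 48248 CPM in controls and 45490 to 46347 CPM in null-labelled libraries. The groups thus overlapped in this sum, while in that of the 17 genes they were narrowly apart. By gene, the groups did not overlap in 8 of the 17 (47.1%, against 26.6% of all tested genes), 6 higher and 2 lower. Of the 17, 12 had log2 fold changes above 0 and 5 below. In bulk tissue, fewer cells of a type and less RNA per cell cannot be told apart.

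Skeletal muscle markers, which share sarcomere genes with heart, were low, with sums of 16.1 to 23.0 CPM in controls and 19.2 to 35.9 CPM in null-labelled libraries, the highest in null-labelled 1. Of 14 markers, 8 were tested and 0 passed in edgeR, with 1 at an unadjusted p under 0.05. All 8 had log2 fold changes above 0, with a median of 0.47. Among the defining factors of skeletal muscle precursors, Myod1 and Myf6 had at most 3 counts and Myf5 and Pax7 at most 1. Myog, a factor of differentiating skeletal muscle, had 11 to 36 counts, the embryonic receptor subunit Chrng 37 to 165 and the perinatal myosin Myh8 118 to 370. No marker was at 0 in every library. Smooth muscle and pericyte markers, which matter for Tpm2, summed to 2040 to 2594 CPM in controls and 2054 to 2173 CPM in null-labelled libraries, and 2 of 12 fell (Smtn and Cspg4). The log2 fold changes of the 12 ran from −0.76 to 0.16 with a median of −0.17, 9 below 0 and 3 above, and no marker of this list was at 0 in every library. Their part in the fall of Tpm2 was not tested.

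Atrial markers summed to 1172 to 1526 CPM in controls and 652 to 1168 CPM in null-labelled libraries, with 1 of 8 higher (Stard10). Of the 8, 6 had log2 fold changes above 0 and 2 below. Of 12 endothelial markers, 6 fell and 1 rose (58.3% changed, against 5.41% of all tested genes). Among 10 macrophage markers 5 rose (50%), and among 10 fibroblast markers 3 rose (30%), against 2.43% of all tested genes. Epicardial markers gave 2 falls of 8 (25%, against 2.98%). Erythroid markers gave 0 calls of 6 in edgeR (2 at an unadjusted p under 0.05). Their sums ran from 1746 CPM in control 1 to 5074 CPM in control 3, and from 1207 to 1967 CPM in null-labelled libraries. Liver markers gave 0 calls of 4 in edgeR (1 at an unadjusted p under 0.05). They summed to 18.5 to 47.1 CPM in controls, highest in control 3, and to 33.1 to 38.0 CPM in null-labelled libraries. Control 3, the control lowest in most sarcomere genes, was highest in erythroid markers and was also the only control high in Xist and low in Y-linked genes. The part of either in those values was not tested.

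**Figure D5:**
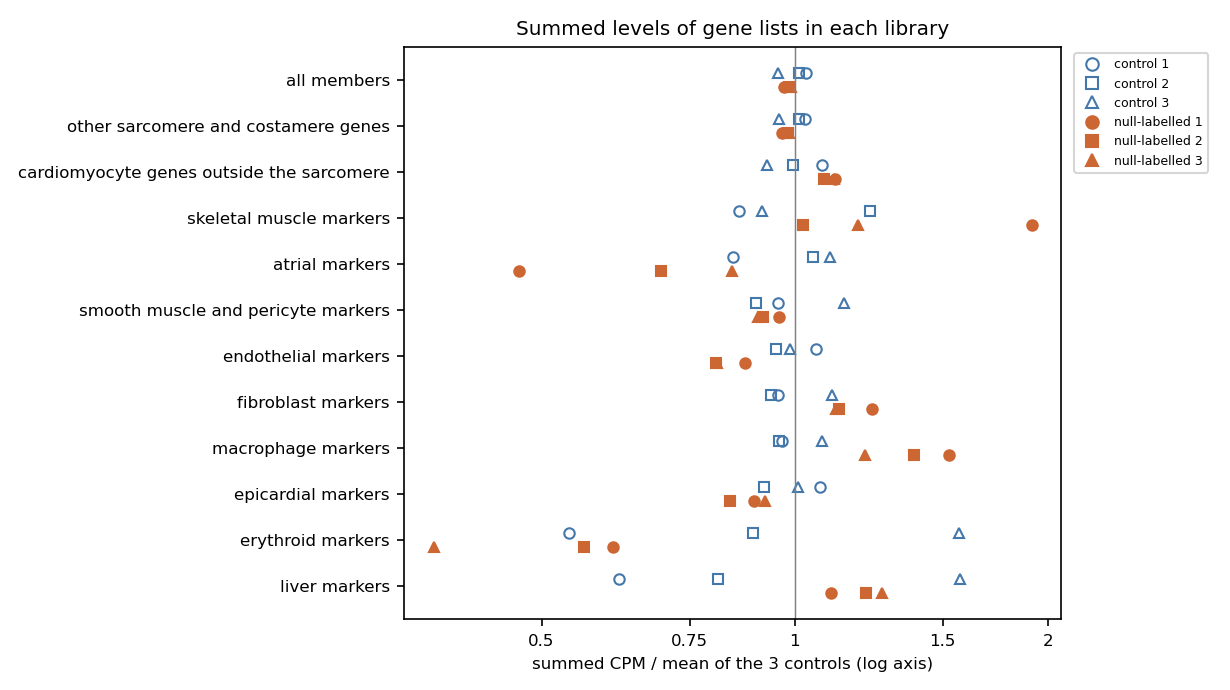
Summed CPM of each gene list in each library, divided by the mean of the 3 controls (log axis). The sarcomere set stays within a narrow range around 1, while erythroid, liver, atrial and skeletal muscle markers differ most between libraries.

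Some genes of the set share sequence with neighbours. Exons on opposite strands overlap over 1287 bases between Tmod1 and Tstd2, 252 between Cryab and Hspb2, 255 and 151 between Unc45b and its neighbours Unc45bos and Slfn5os, 220 between Des and Gm15179, and 207 between Myom1 and Myl12a. Shorter overlaps join Mybphl to Gm12522 (89 bases) and Myh7b to Trpc4ap (37 bases). Without knowledge of the strand setting of the counting, reads from these stretches cannot be assigned to one gene, and the values of these 7 genes are uncertain to that extent. The highest count of such a neighbour in a library was 12549, in Myl12a. Stretches of 50 bases in the transcripts were also compared with other genes on either strand. Of these, 31.4% in Tmod1, 13.3% in Cryab, 6.95% in Unc45b and 5.89% in Nexn occur in another gene. All shared stretches of Tmod1 were shared with Tstd2 and all of Cryab with Hspb2, so they restate the opposite-strand overlaps above. The share was at most 4.61% in the other 32 genes.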

How the data were processed

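The authors deposited raw counts, whole numbers for each gene, in 1 file per library. The submitters' processing notes name cutadapt 1.13, STAR, DESeq2, HTSeq 0.6.1p1 and build mm10. For their roles, the annotation and the strand setting, details were not given in the sources used here. Of 25006 gene identifiers, 24991 matched GENCODE M21, which is of the same build, and gave symbols, coordinates and exon lengths.

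From these counts, genes were filtered with filterByExpr by group and scaled by TMM in R 4.3.3, and both groups were compared with edgeR 4.0.16 (robust quasi-likelihood F test, group as the only term, 3 libraries a group, 2-sided). Adjusted p-values are Benjamini-Hochberg over all 14815 tested genes, with a threshold of 0.05. Standard errors and 95% intervals were derived from each gene's F statistic. CPM and RPKM are scaled by TMM. At these depths 3 counts equal 0.0677 to 0.0852 CPM. The fit was tested on simulated data. DESeq2 1.42.0, limma 3.58.1 (voom), other scalings and filters, left-out libraries and a replicate term were alternatives.

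The members and lists were chosen with earlier results of these data known. Every member is named, as are the other sarcomere and costamere genes and isoform pairs past the threshold or listed by rule. Tpm3, Prox1, Esr1 and the marker genes named singly were added after their values were seen. Promoter sequences are from RefSeq.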

Additional observations from a re-analysis of the deposited data

How the results depend on the processing

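Over 17 alternatives, 19 of the 36 genes kept their sign in all, and none of the 39 sign changes, in 17 genes, passed the threshold (smallest adjusted p 0.0795). Of 612 values, 534 kept direction and side of the threshold, 30 newly passed it and 9 no longer did. The 9 were all of Myoz2: upper-quartile scaling (adjusted p = 0.0516), relative log expression (0.0537), the replicate block (0.0897), 5 of the 6 left-out libraries (0.113 to 0.144), and the omission of null-labelled libraries 1 and 3 together (0.561), which leaves 1 null-labelled library assumed to vary like the controls.

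As reported, 1 gene of the set changed, 1 lower and 0 higher, with 11 other sarcomere genes and 801 of all genes. The number of changed genes in the set was 0 with relative log expression or upper-quartile scaling, both lower counts being 0, and 2, both lower, with total counts, with no filter, with at least 1 CPM in 3 libraries and with limma-voom. In these fits 768 to 943 of all genes were called. DESeq2 gave 7 (2 higher, 5 lower), 17 others and 1095 of all genes. At an adjusted p under 0.1 there were 5 (2 higher, 3 lower), 17 others and 1430 of all genes. Scaling to the cardiomyocyte genes gave 13, all lower, 18 others and 1958 of all genes, and a median of −0.20 for the set where that of all genes was −0.15. Without null-labelled libraries 1 and 3 there were 0 in the set (0 lower), 2 others and 52 of all genes. Leaving out 1 library at a time gave 0 to 5 changed genes of the set, 0 to 1 higher and 0 to 5 lower, 3 to 10 others, 258 to 942 of all genes, and a median of −0.06 to −0.02.

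Same-numbered libraries share only a number: their deviations from the group means had correlations of −0.0643, −0.0467 and −0.121, and 0 of 6 libraries correlated best with its own number. With replicate number as a block, 2 genes of the set were called, both higher (Mybphl and Myom2), 0 lower, 7 others and 570 of all genes.

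None of the values whose sign turned had passed the threshold. The cardiomyocyte scaling gave log2 fold changes of −0.10 for Ttn, −0.13 for Tnnt2, −0.11 for Tmod1, −0.010 for Nebl, −0.10 for Nexn, −0.11 for Synpo2, −0.035 for Trim55 and −0.15 for Smyd1, that is, at or above the shift of all genes. Upper-quartile scaling gave 0.0049 for Palld and 0.0052 for Xirp1, relative log expression 0.00027 and DESeq2 0.00019 for Xirp1. Total counts gave −0.00056 and no filter −0.0010 for Smyd1. Without null-labelled libraries 1 and 3, Palld was at 0.0043, Xirp1 at 0.0014 and Smyd1 at −0.037. With 1 library left out, the log2 fold change ranged from −0.028 to 0.048 for Tnnt2, −0.12 to 0.026 for Tnnc1, −0.21 to 0.0053 for Lmod2, −0.062 to 0.026 for Ldb3, −0.27 to 0.094 for Pdlim3, −0.033 to 0.011 for Palld, −0.10 to 0.028 for Fhl1, −0.059 to 0.030 for Xirp1, −0.56 to 0.12 for Xirp2, −0.21 to 0.0066 for Des and −0.034 to 0.035 for Smyd1. The cause was not tested.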
